A study of Mus musculus with 18 samples.

Results

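The 9 epithelial keratins Krt5, Krt7, Krt8, Krt14, Krt15, Krt17, Krt18, Krt19 and Krt20 were followed on Affymetrix expression arrays of mouse lung and lung tumors. They were chosen by symbol, as the keratins of simple, glandular and basal epithelium. A probe set, a group of short probes that reads 1 transcript, was assigned to a keratin only where that was its single gene symbol. They make up 14 of 45101 probe sets and 9 of the 18193 genes tested. The brightest probe set of each gene gives the values below, and the others of Krt8, Krt14 and Krt17 served as a check.

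The samples came from B6C3F1/N mice, a hybrid strain with a background rate of lung tumors that is widely used in long-term toxicology studies. Treated tumors are lung tumors of mice that inhaled antimony trioxide aerosol, spontaneous tumors are lung tumors labelled spontaneous, and control lung is lung labelled vehicle control. The study exposed males and females to 0, 3, 10 or 30 mg per cubic metre for up to 105 weeks, from an age of 5 to 6 weeks. The exposure level, sex and animal behind each sample are not given in the labels, nor is the exposure of the mice with spontaneous tumors, so the treated group may mix levels. No genetic change was labelled in any group. Of 18 arrays, 15 were used, which were 6 of treated tumors, 4 of spontaneous tumors and 5 of control lung. Control 5 and spontaneous tumors 5 and 6 were left out: their median Pearson correlation with the other arrays across probe sets was 0.30 to 0.48, against 0.92 to 0.97 for the arrays kept. The labels do not say whether samples of a group came from separate animals, so the spread behind each p may be partly technical.

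Keratins are the intermediate filament proteins of epithelial cells. A filament is built from pairs of 1 acidic type I chain and 1 basic type II chain, so that epithelia express the types together. Krt8 (type II) and Krt18 (type I) are the pair of simple epithelia, including the alveolar lining, and Krt7 and Krt19 accompany them in airway and glandular cells. Krt20 is a type I keratin of gut and bladder lining. Krt5 and Krt14 form the pair of basal cells in stratified and airway epithelium, Krt15 marks some basal cells, and Krt17 appears in basal and injured epithelium and in squamous tumors.

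The type II genes Krt5, Krt7 and Krt8 lie on mouse chromosome 15 and the type I genes Krt14, Krt15, Krt17, Krt19 and Krt20 on chromosome 11. Krt18 is the exception, a type I gene at the type II cluster. In the RefSeq table of build GRCm38.p6, Krt8 spans chr15:101996711-102004342 and Krt18 spans chr15:102028216-102032026, 23873 bases apart with 0 other coding genes between them. The sequences below are the 250 bases before the annotated start of the 3 keratins whose levels rose in treated tumors, from RefSeq on that build, each on the gene's own strand from 5′ to 3′. Capitals mark matches, on either strand, to any of 5 short motifs: the TATA box TATAAA, the AP-1 site TGANTCA, the GC box GGGCGG, the ETS site AGGAAG and the Grainyhead site AACCNGTT.
Krt18, chr15:102027966-102028215, plus strand: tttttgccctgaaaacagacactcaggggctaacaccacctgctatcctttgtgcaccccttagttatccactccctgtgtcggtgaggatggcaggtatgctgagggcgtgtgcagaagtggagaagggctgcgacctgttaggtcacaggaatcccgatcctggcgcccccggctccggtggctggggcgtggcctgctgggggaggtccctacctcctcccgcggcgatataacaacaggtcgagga
Krt8, chr15:102004343-102004592, minus strand: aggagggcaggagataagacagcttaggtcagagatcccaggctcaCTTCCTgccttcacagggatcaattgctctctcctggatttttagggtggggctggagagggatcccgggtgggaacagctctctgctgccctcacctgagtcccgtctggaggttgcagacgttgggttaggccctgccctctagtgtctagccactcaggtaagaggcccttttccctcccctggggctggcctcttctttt
Krt20, chr11:99438154-99438403, minus strand: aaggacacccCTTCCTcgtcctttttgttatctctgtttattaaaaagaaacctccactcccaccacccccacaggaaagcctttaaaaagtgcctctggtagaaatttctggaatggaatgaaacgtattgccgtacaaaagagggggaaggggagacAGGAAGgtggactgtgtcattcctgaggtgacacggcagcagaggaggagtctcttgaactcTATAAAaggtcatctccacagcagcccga

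Krt8 and Krt18, whose products pair, shared none of these letters in the window: Krt8 had 1 ETS match at -204 to -199, and Krt18 had no match to any of the 5. Krt20 had ETS matches at -240 to -235 and -91 to -86 and a TATA box at -29 to -24. The windows of Krt7 and Krt5 were also at the gene's outer start. Krt7 held 4 GC boxes and 1 ETS match, and Krt5 had no match. No matches overlapped. Among all 32851 promoter windows of this length, 29.5% held an ETS match, 12.4% a TATA box, 32.7% a GC box, 6.75% an AP-1 match and 1.79% a Grainyhead match. Of the 9 keratins, 6 were matched to the table, and the window of Krt14 starts at an inner transcript.

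Values below are log2 of the array signal. A difference of 1 between groups is a doubling. Values of different keratins are not compared as levels, since probe sets differ in how strongly they bind. A gene was called where its adjusted p from limma, over all 18193 genes of a comparison, was under 0.05. Among the 9 keratins, 3 were called in treated tumors against control lung, all higher, beside 38.8% of all genes called in either direction and 23.8% called higher. In spontaneous tumors against control lung 1 was called, also higher, beside 33.0% of all genes called and 20.1% called higher. The shares of keratins called in either direction therefore lay near or below those of all genes. In treated tumors the share called higher lay above that of all genes, but 9 genes are too few to show a difference. The median log2 fold change of the 9 was 0.22 in treated tumors and 0.20 in spontaneous tumors, against 0.089 and 0.12 over all genes.

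Krt18 rose in both tumor groups. Its log2 value was between 12.32 and 13.45 in treated tumors, with a median of 12.84. In spontaneous tumors 1 to 4 it was 12.54, 12.33, 12.52 and 12.59. In control lung 1, 2, 3, 4 and 6 it was 11.56, 12.04, 11.00, 11.78 and 11.56. Every tumor value lay above every control value. Control 2 came closest to the tumors and control 3 was the lowest.
Krt18 averaged 12.90 ± 0.39 in treated tumors (SD, n = 6), 12.49 ± 0.11 in spontaneous tumors (SD, n = 4) and 11.59 ± 0.38 in control lung (SD, n = 5). The log2 fold change was 1.31 ± 0.19 (SE) in treated tumors, a 2.49-fold rise (adjusted p = 8.98e-05). It was 0.90 ± 0.22 (SE) in spontaneous tumors, a 1.87-fold rise (adjusted p = 0.00493). Groups also did not overlap for 24.5% of all genes in treated tumors and 29.3% in spontaneous tumors against control lung. With all 18 arrays, the fold change was 1.97 in treated tumors (adjusted p = 0.0399) and 1.39 in spontaneous tumors, where the call was lost (adjusted p = 0.25). In bulk tissue, more cells of a type and more RNA per cell cannot be told apart.

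Krt8, the type II partner of Krt18, rose in treated tumors by a smaller amount. Its log2 value ran from 11.90 to 13.07 in treated tumors, with a median of 12.49. It was 11.97, 12.27, 12.59 and 12.18 in spontaneous tumors 1 to 4. It was 11.80, 12.09, 11.46, 11.84 and 11.74 in control lung 1, 2, 3, 4 and 6. Treated tumor 4 and spontaneous tumor 1 lay inside the control range, below control 2, and all other tumors lay above it.
Krt8 averaged 12.46 ± 0.41 in treated tumors (SD, n = 6), 12.25 ± 0.26 in spontaneous tumors (SD, n = 4) and 11.78 ± 0.23 in control lung (SD, n = 5). The log2 fold change was 0.67 ± 0.19 (SE) in treated tumors, or 1.59-fold (adjusted p = 0.00993). In spontaneous tumors it was 0.47 ± 0.21 (SE), with a 95% interval of 0.027 to 0.91 and an adjusted p of 0.0963, which missed the threshold. Both other Krt8 probe sets gave the same calls, with log2 fold changes of 0.64 and 0.78 in treated tumors and 0.43 and 0.54 in spontaneous tumors. With all 18 arrays the treated value was 1.46 and no longer called (adjusted p = 0.345).

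The signals of the partners' main probe sets differed by an amount that shifted between groups. Within an array, log2 Krt18 minus log2 Krt8 averaged 0.45 ± 0.24 in treated tumors (SD, n = 6, range 0.20 to 0.88), 0.24 ± 0.30 in spontaneous tumors (SD, n = 4, range -0.069 to 0.57) and -0.20 ± 0.17 in control lung (SD, n = 5, range -0.45 to -0.046). Every treated tumor lay above every control lung in this difference, and so did all spontaneous tumors but 1, which lay inside the control range at -0.069. Its zero point depends on the probes, and the size of its shift can too. The Krt8 probe sets rose by 0.67 (the one used), 0.64 and 0.78 in treated tumors. The shift was not tested.

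**Figure D1:**
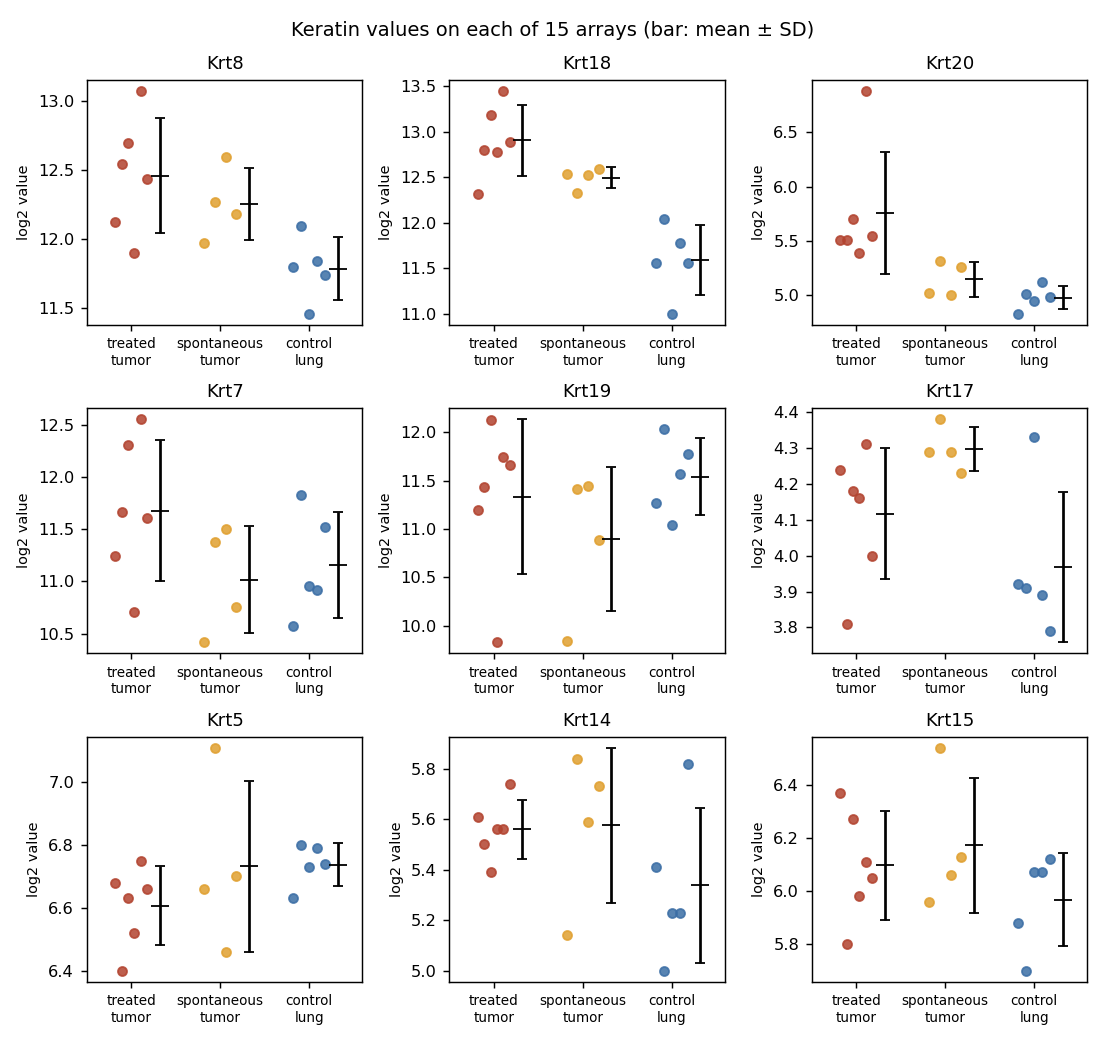
Log2 values of each keratin on each of the 15 arrays, with treated tumors, spontaneous tumors and control lung from left to right; bars give the mean ± SD, and the vertical scale differs between panels. All tumor values of Krt18 lie above the control values, the highest of which is 12.04, and Krt20 has a single treated tumor at 6.88.

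Krt20, the gut and bladder keratin, rose in treated tumors, at a low signal. Its log2 value was between 5.39 and 6.88 in treated tumors, with a median of 5.53. It was 5.02, 5.31, 5.00 and 5.26 in spontaneous tumors 1 to 4, and 4.83, 5.01, 4.95, 5.12 and 4.98 in control lung 1, 2, 3, 4 and 6. All treated tumors lay above all spontaneous tumors and all control lungs, and treated tumor 5, at 6.88, stood apart from the next highest at 5.70. Treated tumors and control lung did not overlap for 24.5% of all genes.
The log2 fold change in treated tumors against control lung was 0.78 ± 0.21 (SE), or 1.72-fold (adjusted p = 0.00892). Without treated tumor 5 it was 0.55 (adjusted p = 0.000567). In spontaneous tumors it was 0.17 ± 0.24 (SE; adjusted p = 0.616). The signal was below the lower quartile of all probe sets on 7 of the 15 arrays, which were 0 of 6 treated tumors, 2 of 4 spontaneous tumors (1 and 3) and 5 of 5 control lungs. The fold is thus measured against a control group that lies wholly below that quartile, and the files used here hold no detection calls. With all 18 arrays the treated value was 0.45 (adjusted p = 0.649).

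Krt7 and Krt19, the other simple keratins, varied more between samples of a group than between groups. Krt7 ran from 10.71 to 12.55 in treated tumors, with a median of 11.64. It was 10.42, 11.38, 11.50 and 10.76 in spontaneous tumors 1 to 4 and 10.57, 11.83, 10.96, 10.92 and 11.52 in control lung 1, 2, 3, 4 and 6. The 3 groups overlapped, with only treated tumors 3 and 5 above the highest control lung.
The Krt7 log2 fold change was 0.52 ± 0.32 in treated tumors (SE; 95% interval -0.16 to 1.21; adjusted p = 0.221) and -0.14 ± 0.36 in spontaneous tumors (SE; 95% interval -0.90 to 0.62; adjusted p = 0.79). These intervals still include changes of the size seen for Krt8.

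Krt19 ran from 9.83 to 12.13 in treated tumors, with a median of 11.55. It was 9.84, 11.41, 11.45 and 10.89 in spontaneous tumors 1 to 4 and 11.27, 12.04, 11.04, 11.57 and 11.78 in control lung 1, 2, 3, 4 and 6. Treated tumor 4 and spontaneous tumor 1 were the 2 low samples, each more than 1 log2 unit below its group mean.
The Krt19 log2 fold change was -0.21 ± 0.37 in treated tumors (SE; 95% interval -1.0 to 0.59; adjusted p = 0.704) and -0.65 ± 0.41 in spontaneous tumors (SE; 95% interval -1.52 to 0.23; adjusted p = 0.25). Without treated tumor 4 the treated value was 0.095, and without spontaneous tumor 1 the spontaneous value was -0.29. Krt19 had the widest spread of the 9 keratins, with an SD of 0.68 over the 15 arrays. The SDs of Krt18, Krt7, Krt20 and Krt8 were 0.67, 0.62, 0.50 and 0.42, against a median of 0.32 over all genes.

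None of the 4 keratins of basal or stratified epithelium was called in either tumor group. Of all genes, 38.8% were called in treated and 33.0% in spontaneous tumors, and so few keratins cannot show a difference from those shares. Krt5 averaged 6.61 ± 0.12 in treated tumors (SD, n = 6), 6.73 ± 0.27 in spontaneous tumors (SD, n = 4) and 6.74 ± 0.07 in control lung (SD, n = 5). Its log2 fold change was -0.13 ± 0.11 in treated tumors (SE; 95% interval -0.37 to 0.10) and -0.0055 ± 0.12 in spontaneous tumors (SE; 95% interval -0.27 to 0.25). The highest Krt5 value, 7.11, was in spontaneous tumor 2.
Krt14, the partner of Krt5, averaged 5.56 ± 0.12 in treated tumors, 5.57 ± 0.31 in spontaneous tumors and 5.34 ± 0.31 in control lung. Its log2 fold changes were 0.22 ± 0.15 (SE; adjusted p = 0.266) and 0.23 ± 0.16 (SE; adjusted p = 0.301) in treated and in spontaneous tumors. The other Krt14 probe sets gave 0.078 and -0.18 in treated tumors and 0.16 and 0.014 in spontaneous tumors, so the probe sets differed in sign in treated tumors and were all positive, with no call, in spontaneous tumors. The probe set at -0.18 averaged 4.35 to 4.55 by group, under the lower quartile of all probe sets (5.04 to 5.20), so its sign rests on a low signal. The main Krt14 probe set was under that quartile on 1 of 15 arrays.
Krt15 averaged 6.09 ± 0.20 in treated tumors, 6.17 ± 0.25 in spontaneous tumors and 5.97 ± 0.18 in control lung, with adjusted p of 0.487 and 0.306 for the 2 tumor groups. Spontaneous tumor 2 also held the highest Krt15 value, 6.54, and the highest value of the main Krt14 probe set, 5.84.

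Krt17 came closest to a call among these, in spontaneous tumors. It was 4.29, 4.38, 4.29 and 4.23 in spontaneous tumors 1 to 4 and 3.92, 3.91, 4.33, 3.89 and 3.79 in control lung 1, 2, 3, 4 and 6. Treated tumors ran from 3.81 to 4.31, with a median of 4.17. Only control 3 lay among the spontaneous tumors.
The Krt17 log2 fold change was 0.15 ± 0.11 in treated tumors (SE; adjusted p = 0.334) and 0.33 ± 0.13 in spontaneous tumors (SE; adjusted p = 0.0569). Without control 3 the spontaneous value was 0.42 and passed the threshold (adjusted p = 0.014), and it also passed without treated tumor 2, at 0.33 (adjusted p = 0.0434). The other Krt17 probe set gave -0.17 in treated tumors and -0.074 in spontaneous tumors. The Krt17 signal was below the lower quartile of all probe sets, 5.04 to 5.20, on all 15 arrays. A probe set shared by Krt14 and Krt17, left out of the tests, averaged 5.76 in treated tumors, 5.85 in spontaneous tumors and 5.62 in control lung.

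**Figure D2:**
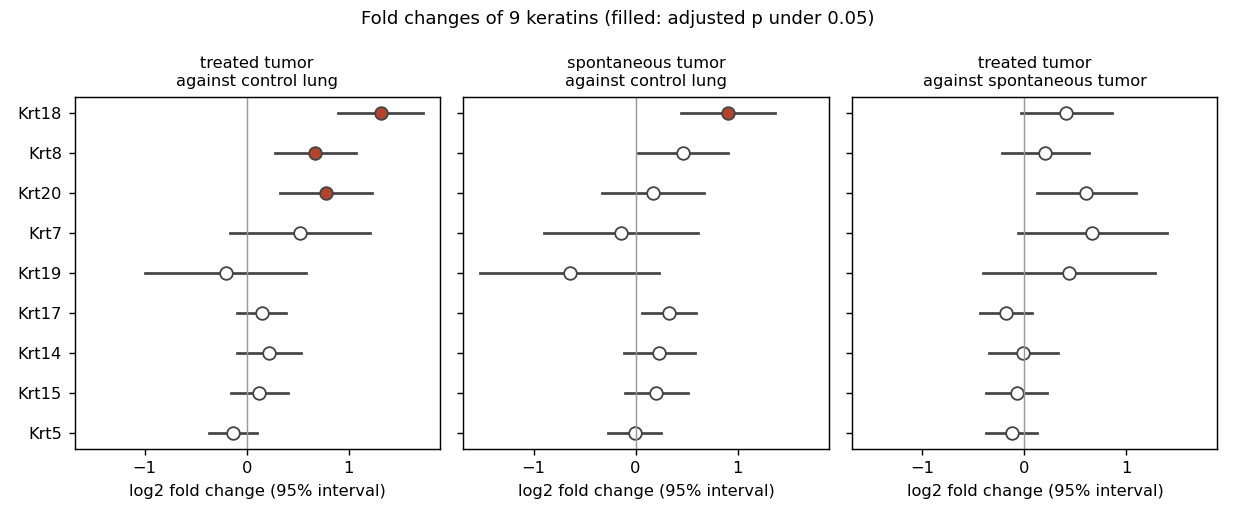
Log2 fold change of each keratin with its 95% interval in treated tumor against control lung, spontaneous tumor against control lung and treated against spontaneous tumor; filled points passed an adjusted p of 0.05. Krt18 is filled in both comparisons with control lung (1.31 and 0.90), and no point is filled between the tumor groups.

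Treated and spontaneous tumors were not separated by any keratin under limma's adjusted p. In this comparison 0 of 9 keratins were called, and 0.0550% of all genes were (0.0330% higher and 0.0220% lower in treated tumors). At an unadjusted p under 0.05, 1 keratin passed, Krt20, as did 8.64% of all genes. Its log2 fold change between treated and spontaneous tumors was 0.61 ± 0.23 (SE; 95% interval 0.13 to 1.09; adjusted p = 0.454), and without treated tumor 5 it was 0.38 (adjusted p = 0.26). The 2 tumor groups did not overlap in Krt20, which held for 1.63% of all genes. Krt7 differed by 0.67 ± 0.34 (SE; 95% interval -0.065 to 1.40) and Krt18 by 0.41 ± 0.21 (SE; 95% interval -0.031 to 0.85). These intervals include 0 as well as differences of more than 0.8 log2 units, so similar levels in the tumor groups were not shown either. The fold changes of Krt5, Krt14, Krt15 and Krt17 between the tumor groups were -0.13, -0.013, -0.077 and -0.18.

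On 5 of the 15 arrays all 5 simple keratins lay on the same side of the mean of their group, and on the other 10 arrays they were mixed. Treated tumor 5 lay above the mean of its group for all 5 of Krt7, Krt8, Krt18, Krt19 and Krt20, by 0.87, 0.61, 0.55, 0.41 and 1.12. Treated tumors 1 and 4 lay below it for all 5, and treated tumor 4 was low above all in Krt19, at -1.51, and Krt7, at -0.96. For Krt20, treated tumor 5 raised the group mean above all other treated tumors, which deviated by -0.052 to -0.37. The side of Krt20 in treated tumors 1 and 4 therefore adds little, and the count of 5 uniform arrays partly rests on it. In control lung, control 2 lay above its group mean for all 5 and control 3 below it for all 5. No spontaneous tumor was uniform: 1, 4, 4 and 2 of the 5 lay above the group mean in spontaneous tumors 1 to 4. These are descriptions, since the genes share their arrays. In treated tumor 5, Krt5 (6.75) and Krt17 (4.31) were also the highest of the treated tumors, by smaller deviations of 0.14 and 0.19 from the group mean, and Krt15 and Krt14 deviated by 0.012 and -0.0014.

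**Figure D3:**
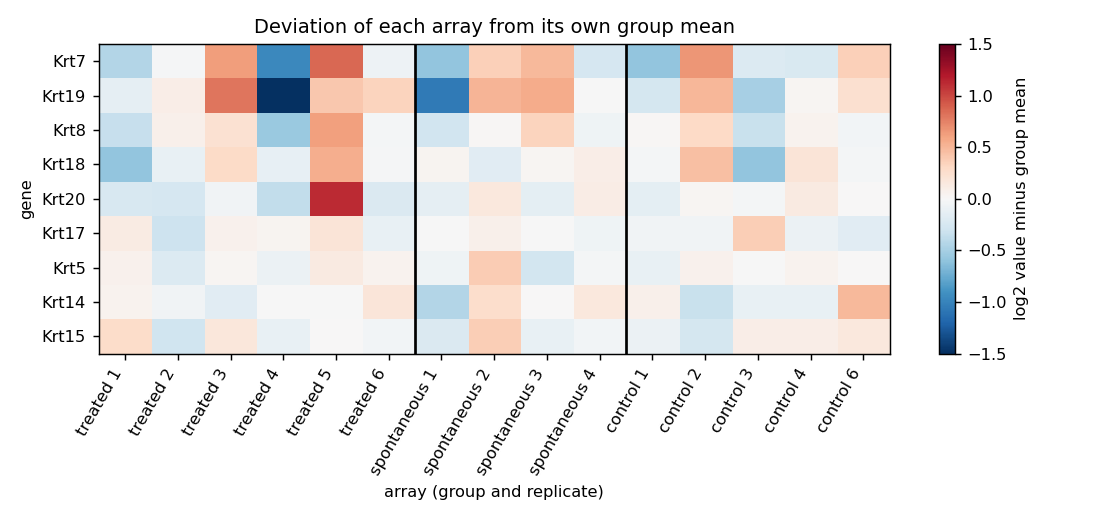
Deviation of each keratin from the mean of its own group, in log2 units, on each array; red is above and blue below the group mean, and vertical lines part treated tumors, spontaneous tumors and control lung. Treated tumor 5 is red in the upper 5 rows (Krt20 by 1.12), and treated tumor 4 and spontaneous tumor 1 are darkest blue in Krt19 (-1.51 and -1.06).

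Markers of other cell types also moved with some of these samples. Treated tumor 5 had Trp63, the transcription factor of basal and squamous cells, at 9.90, against 5.74 to 6.22 in the other treated tumors, 5.76 to 6.87 in spontaneous tumors and 5.95 to 6.11 in control lung. In treated tumor 5, 3 of 4 Trp63 probe sets were high. The same sample had the highest Scgb1a1, the club cell secretoglobin, of the treated tumors, at 13.34 against a range of 8.17 to 10.90 in the others. Scgb1a1 was 8.78 to 13.63 in spontaneous tumors, with a median of 13.21, and 14.35 to 14.49 in control lung. Its level in treated tumor 5 thus lay within the range of spontaneous tumors and below control lung. Msln, a mesothelial antigen also expressed in some adenocarcinomas, was high in treated tumor 3 (9.58) and control 2 (8.73), which are the samples with the highest Krt19 of their groups. Other samples did not all follow this. Msln was 6.88 in control 3 and 6.81 in control 6, with Krt19 at 11.04, the lowest control value, and 11.78. In treated tumor 2 Msln was 6.72 and Krt19 11.44. Among spontaneous tumors, Msln was highest in tumor 2 (6.30) and Krt19 in tumor 3 (11.45). The part of these markers in the keratin values was not tested. Trp63, Scgb1a1 and Msln were singled out after their values were seen.

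For the 3 keratins with the largest spread, the genes with the most similar profile over the 15 arrays were found by the root mean square difference between log2 profiles, each minus its own mean. Nearest to Krt18 was Fam83h, a keratin filament-binding protein, at 0.16, then Knop1 at 0.20 and Csgalnact2 at 0.23. A flat profile would lie 0.64 from Krt18. Nearest to Krt19 were Slc39a4, a zinc importer, at 0.21, Thbs1 at 0.31 and Pstpip1 at 0.34, against 0.66 for a flat profile. Nearest to Krt7 were Slc17a9, a vesicular nucleotide transporter, at 0.28, Ctbs at 0.31 and Nol3 at 0.31, against 0.60.

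Among other keratins, Krt23 and Krt79 rose and Krt80 fell in both tumor groups. Krt23, a type I keratin, ran from 9.47 to 10.57 in treated tumors and from 9.62 to 10.62 in spontaneous tumors, against 7.59 to 8.11 in control lung. Its log2 fold change was 2.09 ± 0.21 (SE; adjusted p = 2.74e-06) in treated tumors and 2.37 ± 0.24 (SE; adjusted p = 3.43e-06) in spontaneous tumors.
Krt80, a type II keratin of differentiating epithelia, ran from 7.20 to 8.77 in treated tumors and from 6.26 to 8.74 in spontaneous tumors, against 10.33 to 10.94 in control lung. It fell by 2.97 ± 0.39 (SE; adjusted p = 2.98e-05) in treated tumors and by 3.11 ± 0.43 (SE; adjusted p = 7.11e-05) in spontaneous tumors. For both genes the tumors were clear of the control lungs. Groups also did not overlap for 24.5% of all genes in treated and 29.3% in spontaneous tumors.
Krt79, a type II keratin of hair follicle and sebaceous ducts in mouse skin, changed by 1.33 ± 0.39 (SE; adjusted p = 0.013) and 1.64 ± 0.43 (SE; adjusted p = 0.00879) in treated and in spontaneous tumors. It was 10.03 in treated tumor 1, and without that sample the treated value was 0.98 and still called.

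Among all genes, 38.8% were called in treated and 33.0% in spontaneous tumors. Of the 18 other type I keratins measured, 3 rose in treated tumors and 2 in spontaneous tumors, and 0 fell. Of 19 other type II keratins, 2 rose and 1 fell in each tumor group. Their median log2 fold changes were 0.12 and 0.21 for type I and 0.053 and 0.14 for type II, in treated and in spontaneous tumors. Besides the 3 genes above, the called ones were the hair keratin Krt31 and the inner root sheath keratins Krt25 and Krt71. Krt25 rose by 0.81 in treated and 0.76 in spontaneous tumors, Krt71 by 0.29 and 0.32, and Krt31 by 0.32 in treated tumors. Krt25 kept its call in treated tumors with any 1 array left out (highest adjusted p = 0.0413), and the other calls depended on single samples. In spontaneous tumors, Krt25 lost its call without control 1, 2, 3 or 4 or spontaneous tumor 1 or 4 (highest adjusted p = 0.131), and Krt71 without control 1, 2, 4 or 6 or spontaneous tumor 2, 3 or 4 (highest adjusted p = 0.11). In treated tumors, Krt31 lost its call without control 1, 2 or 4 or treated tumor 1, 5 or 6 (highest adjusted p = 0.0964), and Krt71 without control 1, 2 or 4 or treated tumor 1, 3 or 5 (highest adjusted p = 0.0889).

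**Figure D4:**
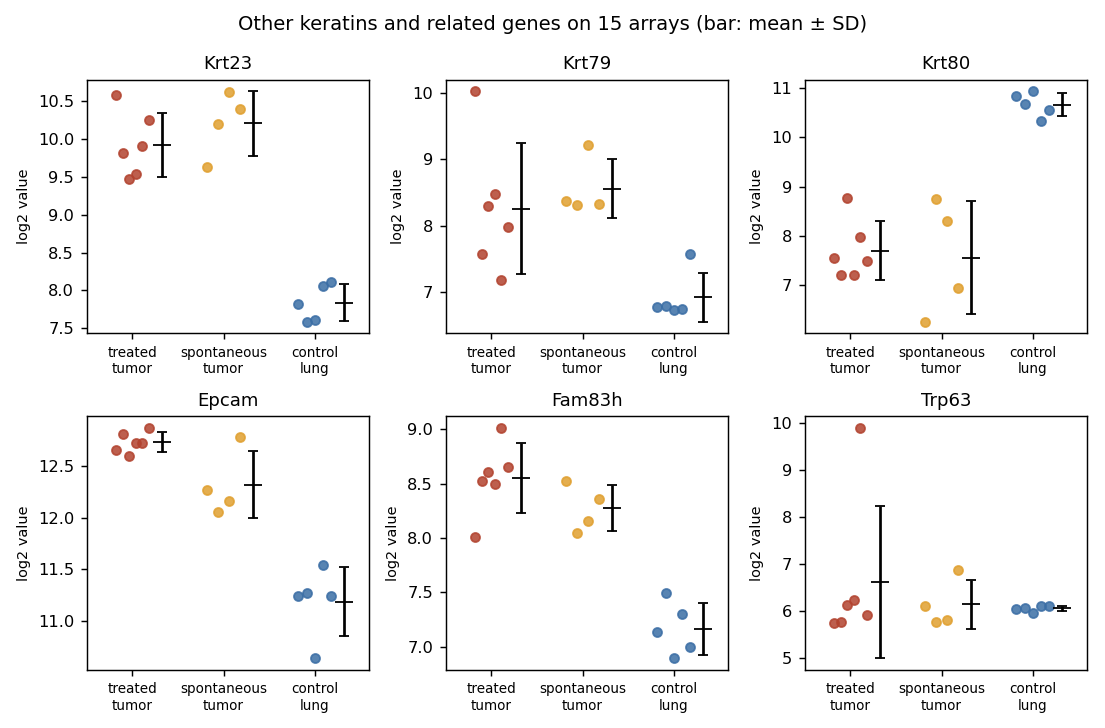
Log2 values of 3 other keratins and of Epcam, Fam83h and Trp63 on the 15 arrays, with treated tumors, spontaneous tumors and control lung from left to right; bars give the mean ± SD. Krt23, Epcam and Fam83h are higher and Krt80 is lower in every tumor than in every control lung, and Trp63 has 1 treated tumor at 9.90. Tumors and control lung do not overlap for 24.5% of all genes in treated and 29.3% in spontaneous tumors.

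Of 13 other intermediate filament genes, 1 rose and 4 fell in treated tumors, beside 38.8% of all genes called. In spontaneous tumors 2 rose and 3 fell, beside 33.0%. Those that fell were Des, Nes and Vim in both groups, and the muscle filament gene Synm in treated tumors. Des, the muscle filament desmin, fell by 2.56 in treated tumors (adjusted p = 8.41e-07) and by 2.31 in spontaneous tumors (adjusted p = 9.65e-06). Nes, nestin, changed by -1.64 and -1.38, and Vim, vimentin, by -0.76 and -0.71, in treated and in spontaneous tumors. With all 18 arrays the value of Vim turned to 0.39 in treated and 0.25 in spontaneous tumors, with no call. Lmnb1, a nuclear lamin, rose by 0.91 in treated tumors.

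Desmosomes anchor keratin filaments at cell contacts. Of 12 desmosomal genes, 3 rose and 1 fell in treated tumors, beside 38.8% of all genes called. In spontaneous tumors 2 rose and 1 fell, beside 33.0%. Perp, a desmosomal membrane protein, rose by 1.46 ± 0.26 (SE; adjusted p = 0.000408) in treated tumors and by 0.87 ± 0.29 (SE; adjusted p = 0.0292) in spontaneous tumors. The spontaneous call was lost without control 1, control 3, spontaneous tumor 1 or spontaneous tumor 3 (highest adjusted p = 0.0914). Pkp3, a plakophilin, rose by 0.59 and 0.63, and Jup, plakoglobin, changed by -0.71 and -0.55, in treated and in spontaneous tumors. With all 18 arrays the treated value of Jup was 0.17, with no call. Dsp, the plakin that binds keratin directly, had log2 fold changes of 0.023 and 0.12 with no call.
The counts of hemidesmosomal and keratin-binding genes stand beside the same shares of all genes. Hemidesmosomes anchor keratins to the basement membrane. Of 6 such genes 0 rose and 2 fell in each tumor group: Dst, which carries the epithelial plakin BPAG1, changed by -2.08 and -1.64, and Col17a1, a transmembrane collagen, by -0.77 and -1.07, in treated and in spontaneous tumors. The treated call of Col17a1 was lost without control 3 (adjusted p = 0.0511), and without treated tumor 1 or 5 the spontaneous count was 4. Of 3 keratin-binding genes, Fam83h rose by 1.39 ± 0.16 (SE; adjusted p = 9.77e-06) and 1.11 ± 0.18 (SE; adjusted p = 0.000255), and Tchp, trichoplein, fell by 0.62 in treated tumors (adjusted p = 0.00439). The spontaneous count was 2 without control 3 or spontaneous tumor 2.

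Of 12 transcription factors known to act on keratin genes or on epithelial differentiation, 6 rose and 2 fell in treated tumors. In spontaneous tumors 4 rose and 1 fell. Among all genes, 38.8% were called in treated and 33.0% in spontaneous tumors. Grhl2, a Grainyhead-like factor, rose by 1.13 and 0.87 and Ehf, an ETS factor of epithelia, rose by 1.29 and 1.31, in treated and in spontaneous tumors. Klf4, a factor of epithelial differentiation, changed by -1.44 and -1.90. For these 3 genes the tumors and control lungs did not overlap. Groups also did not overlap for 24.5% of all genes in treated and 29.3% in spontaneous tumors. Sox2, named after its values were seen, had the largest treated change, -4.09 ± 1.30 (SE; adjusted p = 0.0207). The treated count of 8 called was 5 without control 1, 3 or 6 or without treated tumor 6.
Stratified epithelia use cornified envelope genes for their outer layer. Of 9 such genes, 3 rose in treated tumors and 1 in spontaneous tumors, beside the same shares of all genes called. Ivl, involucrin, rose by 2.94 ± 0.56 (SE; adjusted p = 0.000678) and 2.99 ± 0.62 (SE; adjusted p = 0.00173), and Tgm1, the crosslinking transglutaminase, rose by 1.80 in treated tumors (adjusted p = 0.000898). The third was Flg, filaggrin, at 0.24, whose call was lost without control 1 or 4 or without treated tumor 1 or 5 (highest adjusted p = 0.0749). The spontaneous count was 2 without control 2 or 6 or without treated tumor 1 or 3.

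Markers of epithelial and other cells moved between tumors and control lung beside the keratins. The counts called in each list stand beside 38.8% of all genes called in treated and 33.0% in spontaneous tumors. The summed level, or sum, of a list is the log2 of its summed linear signals, in which its brightest probe sets weigh most. Of 8 general epithelial markers, 5 rose in each tumor group and 0 fell. Their summed level was 14.40 to 14.65 in treated tumors, 14.36 to 14.56 in spontaneous tumors and 13.65 to 14.20 in control lung. Epcam rose by 1.54 ± 0.15 (SE; adjusted p = 2.3e-06) and 1.13 ± 0.17 (SE; adjusted p = 0.000151). Of 7 markers of alveolar type 2 cells, the surfactant producers, 6 rose in each tumor group. Their summed level was 16.32 to 16.42, 16.36 to 16.48 and 15.53 to 16.03 in treated tumors, spontaneous tumors and control lung, with all 7 included. The remaining marker, the surfactant gene Sftpc, named after its values were seen, averaged 14.24, 14.21 and 14.22 in that order and was not called.
All 6 ciliated cell markers fell, with sums of 8.36 to 9.27 in treated tumors, 8.58 to 9.75 in spontaneous tumors and 12.34 to 13.78 in control lung. Of 6 club cell markers, 5 fell in treated and 3 in spontaneous tumors, with sums of 10.40 to 13.91, 12.02 to 14.27 and 15.69 to 16.08. The remaining club marker, the secretoglobin Scgb3a1, named after its values were seen, went the other way, at 1.61 in treated and 1.97 in spontaneous tumors, with no call. Without treated tumor 5, all 6 were called in spontaneous tumors in either direction. Of 8 alveolar type 1 markers, 5 fell in each tumor group, and 3 in spontaneous tumors without control 2 or 3 or without spontaneous tumor 1, 3 or 4. Club and ciliated cells carry Krt7 and Krt19 as well as Krt8 and Krt18, and alveolar type 2 cells carry Krt8 and Krt18. The part of these marker changes in the keratin values was not tested.

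Of 6 basal cell markers, 0 were called higher and 2 lower, Snai2 (-1.04 in treated and -1.16 in spontaneous tumors) and Col17a1, given above. The other 4 were not called, with log2 fold changes up to 0.56 in treated and 0.45 in spontaneous tumors. Of all genes, 38.8% and 33.0% were called. The summed level of the 6 markers was 9.13 to 10.67 in treated tumors, 9.31 to 9.45 in spontaneous tumors and 9.67 to 10.19 in control lung, with the highest in treated tumor 5. Of 10 markers of the Krt8-high transitional alveolar state described in injured mouse lung, 2 rose and 1 fell in treated tumors and 1 rose in spontaneous tumors. Clu, clusterin, rose by 1.86 and 1.38 and Cldn4, a tight junction claudin, rose by 2.73 in treated tumors, while Nupr1 fell by 1.13 there. Without control 2 the treated count was 5, and without treated tumor 1 or 4 the spontaneous count was 2.
Of 7 gut epithelial markers, which relate to Krt20, 1 rose in treated tumors: Vil1, villin, by 2.03 ± 0.55 (SE; adjusted p = 0.00849), with 9.44 in treated tumor 5, the sample highest in Krt20. In treated tumors 1, 2, 3, 4 and 6, Vil1 was 6.51, 8.90, 6.65, 6.62 and 8.89. Krt20 was 5.51, 5.51, 5.70, 5.39 and 5.54 there, so the order of samples differed between the genes. The treated count was 2 or 3 without control 6, spontaneous tumor 2 or treated tumor 1 or 4. In spontaneous tumors Cdx1 rose by 0.48, a call lost without control 1 or spontaneous tumor 2. Of 7 mesothelial markers, whose cells also carry Krt7, Krt8, Krt18 and Krt19, 3 fell in each tumor group, with sums of 7.90 to 9.95 in treated tumors, 7.78 to 8.24 in spontaneous tumors and 10.07 to 11.04 in control lung. Endothelial, smooth muscle and fibroblast markers fell in 6 of 6, 5 of 5 and 4 of 6 genes in treated tumors and in 5 of 6, 5 of 5 and 4 of 6 in spontaneous tumors. A further fibroblast marker, the collagen gene Col1a1, named after its values were seen, rose by 0.81 in treated tumors (adjusted p = 0.0456). Without control 1, 3 or 4, treated tumor 1, 2, 3 or 5 or spontaneous tumor 1 or 2, 4 rather than 5 fibroblast markers were called in treated tumors. Of 6 macrophage markers, Chil3 rose by 2.10 in treated and 2.15 in spontaneous tumors and Csf1r fell by 0.77 in treated tumors. The Chil3 calls were lost without control 1, 3 or 4, and in spontaneous tumors also without any 1 of the spontaneous tumors. Without control 2 or 6 the macrophage count was 4 or 5 in treated tumors and 3 in spontaneous tumors.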

How the data were processed

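Deposited log2 values of 18 arrays (6 per group) were made with RMA, per the submitters' processing notes; its version is not given in the sources used here. RMA corrects background, normalizes arrays together and summarizes probes, which can compress differences at low signal. No further normalization was applied, and raw scans were not analysed here. Of 45101 probe sets, 34945 carried 1 gene symbol, 932 several, 9160 none, and 64 were controls; per gene the one with the highest mean over the 15 arrays kept was tested. One mean per group was fitted with limma 3.58.1 in R 4.3.3 (lmFit, eBayes), and p was adjusted by Benjamini and Hochberg over 18193 genes. Fold changes are the tumor minus control lung, or treated minus spontaneous tumor. The number of arrays limits the precision: the median SE of a log2 fold change was 0.15 to 0.17.

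The 9 keratins, the gene lists and the arrays left out were chosen with earlier results of these data known. Named were all keratins, up to 4 genes per list by smallest p, and the 3 most similar profiles per keratin of largest spread. Alternatives were other scaling, filters, probe sets, variance models, a replicate block, all 18 arrays with and without weights, and each array left out. The code was tested on simulated data.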

Additional observations from a re-analysis of the deposited data

Results flagged for a closer look

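In groups of 4 to 6 arrays, a sample was looked at again where its gap to the nearest other sample was large against the range of its group, by Dixon's 95% limit. Chance alone passes about 1 in 20 groups. Among the 9 keratins 2 of 27 groups passed. The other values come from genes such as Trp63 and Msln that were singled out after their values were seen, so their number cannot be set against that share.

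Krt20 was 6.88 in treated tumor 5, with the next treated tumor at 5.70. Trp63 was 9.90 in the same treated tumor 5, with the next at 6.22. Krt17 was 4.33 in control 3, with the next control at 3.92. Krt79 was 9.22 in spontaneous tumor 3, with the next at 8.37, and 7.57 in control 6, with the next at 6.79. Msln was 9.58 in treated tumor 3, with the next at 6.72.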

How the results depend on the processing

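Krt18 stayed called in treated tumors under every alternative run, at 1.17 to 1.97. Genes called were 7065 in treated tumor against control, 6012 in spontaneous tumor against control and 10 between tumors, and keratins called were 3, 1 and 0. With all 18 arrays these became 1350, 757 and 0 genes and 1, 0 and 0 keratins. Krt14 (-0.25), Krt15 (-0.37), Krt17 (-0.15), Krt19 (0.30), Flg (-0.37), Jup (0.17) and Vim (0.39) then reversed in treated tumors, Krt5 (0.19), Krt7 (0.066) and Vim (0.25) in spontaneous tumors and Krt20 (-0.028) between tumors. Weighting the 18 arrays gave 2 keratins in spontaneous tumors (Krt8 added, adjusted p = 0.0345) and 37 genes between tumors. Quantile normalization gave 2 (Krt17 added, adjusted p = 0.0265) and 5, with Krt5 at 0.081 in spontaneous tumors and Krt14 at 0.0012 between tumors. Median centring gave 2 (Krt17 added, adjusted p = 0.0217), with Krt5 at 0.071. Of the 10 genes called between tumors, 60% were higher in treated tumors. After centring this was 50% of 8 genes, and after quantile normalization 40% of 5. Against control lung, 61.3% of the genes called were higher in treated and 60.9% in spontaneous tumors. These shares became 69.2% and 70% after centring and 59.1% and 59.5% after quantile normalization. Keeping the 9097 genes above the median level, with 4 of the 9 keratins, gave 4658 and 4004 genes, fewer because fewer were tested. Both counts are a larger share of the genes tested than in the main fit. A variance trend gave 5 genes between tumors, every probe set singly 5, and only the compared arrays 0, with 2 keratins in spontaneous tumors (Krt8 added, adjusted p = 0.0441). A replicate block gave 0 genes between tumors and 3, 1 and 0 keratins, with Krt5 at 0.0058 in spontaneous tumors. Between same-numbered samples, the deviations of all genes from their group means correlated by -0.15 to 0.30. The labels do not say whether a shared number marks a pair. Other probe sets reversed Krt14 (-0.18) and Krt17 (-0.17, and -0.014 for their mean) in treated and Krt17 (-0.074) in spontaneous tumors. With each array left out, genes called were 6083 to 7225, 4993 to 6177 and 0 to 28, and keratins called 3 to 3, 1 to 2 and 0 to 0. Values near 0 changed sign in these fits: in treated tumors Krt19 (-0.37 to 0.095), in spontaneous tumors Krt5 (-0.13 to 0.086) and Krt7 (-0.31 to 0.055), and between tumors Krt5 (-0.22 to 0.0011), Krt14 (-0.16 to 0.076) and Krt15 (-0.15 to 0.046). Where no construction is named, the cause was not tested. Scan batches and background correction could not be varied from these values.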
